A study of Homo sapiens with 8 samples.

Results

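Glycolysis is the chain of cytosolic enzymes that turns glucose into pyruvate, which lactate dehydrogenase can reduce to lactate, and tumor cells, glioblastoma cells among them, are known for running it at a high rate even when oxygen is present. Hypoxia-inducible factor (HIF) is a transcription factor whose alpha subunit, HIF1A, is hydroxylated and destroyed when oxygen is plentiful and accumulates when oxygen is low. It then binds short response elements in its target genes, which include most glycolytic genes, the glucose transporter SLC2A1, the angiogenic factor VEGFA and the mitophagy receptor BNIP3. The genes described here are 37 named genes of this response, 23 of glucose transport, glycolysis and pyruvate use and 14 of oxygen sensing and other HIF targets. They were selected by symbol from the 61906 genes of an RNAseq table, and all 37 were among the 14478 that reached an average of 1 TPM across libraries. TPM is a relative transcript abundance, scaled for the length of the transcript and the size of the library.

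U251 is a human glioblastoma cell line, labelled wild type here, and LLY-283 inhibits PRMT5, an arginine methyltransferase. Cultures received DMSO (vehicle) or 100 nM LLY-283 for 24 h, with 4 libraries labelled as biological replicates in each group, and the labels name neither irradiation nor low oxygen. The comparison therefore asks how inhibition of PRMT5 changed the transcripts of this response in cells kept in ordinary culture. One cell line, 1 dose and 1 time were measured, and in RNA from whole cultures fewer cells with a transcript cannot be told apart from less of it per cell.

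The glial markers VIM, CD44, GFAP, NES, SOX2 and S100B were all detected, with summed levels of 7170.3 to 7339.4 TPM in vehicle and 6907.4 to 7266.3 TPM in LLY-283. CD44 was increased (log2 fold change 0.11, adjusted p = 0.0168), while GFAP, NES and SOX2 were decreased, SOX2 with the smallest p-value (-0.27, adjusted p = 0.000349). Of 8 markers of other cell types, PTPRC, PECAM1, CDH5, EPCAM, HBB and ALB did not exceed 0.2 TPM in any library, and the 8 summed to 52.1 to 58.6 TPM in vehicle and 70.9 to 81.6 TPM in LLY-283. Nearly all of that sum was the collagen gene COL1A1, which was increased (53.9 ± 2.59 to 74.9 ± 4.74 TPM, mean ± SD, n = 4; adjusted p = 0.000355), and its part in the results was not tested. Replicates correlated at 0.963 to 0.971 in both groups. LLY-283 replicate 4 stood apart, with 7.19% of its TPM in mitochondrial genes against 10.2 to 11% in the other 7 libraries. TPM keeps no record of depth, so no counting error can be given for any value.

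By level, the genes ran from CA12, a carbonic anhydrase with a mean of 1.8 TPM, to the glycolytic enzyme GAPDH, which at 8483.5 TPM ranked 7 of all genes listed. PKM ranked 11 and ENO1 ranked 16, while among the most abundant isozymes of the upper steps HK1 had 124 TPM and PFKP 198 TPM, beside 564 TPM for GPI and 2240.0 TPM for ALDOA. The 17 enzymes from hexokinase to lactate dehydrogenase together made up 2.52, 2.62, 2.57 and 2.61% of all TPM in vehicle replicates 1 to 4 and 2.58, 2.57, 2.52 and 2.88% in LLY-283 replicates 1 to 4. The library with the highest share was LLY-283 replicate 4, and the other 3 LLY-283 libraries lay within the vehicle range. GAPDH, PKM, ENO1, ALDOA and PGK1 accounted for 86 to 86.4% of the enzyme sum in every library, and GAPDH alone for 31.7 to 33.2%.

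**Figure D1:**
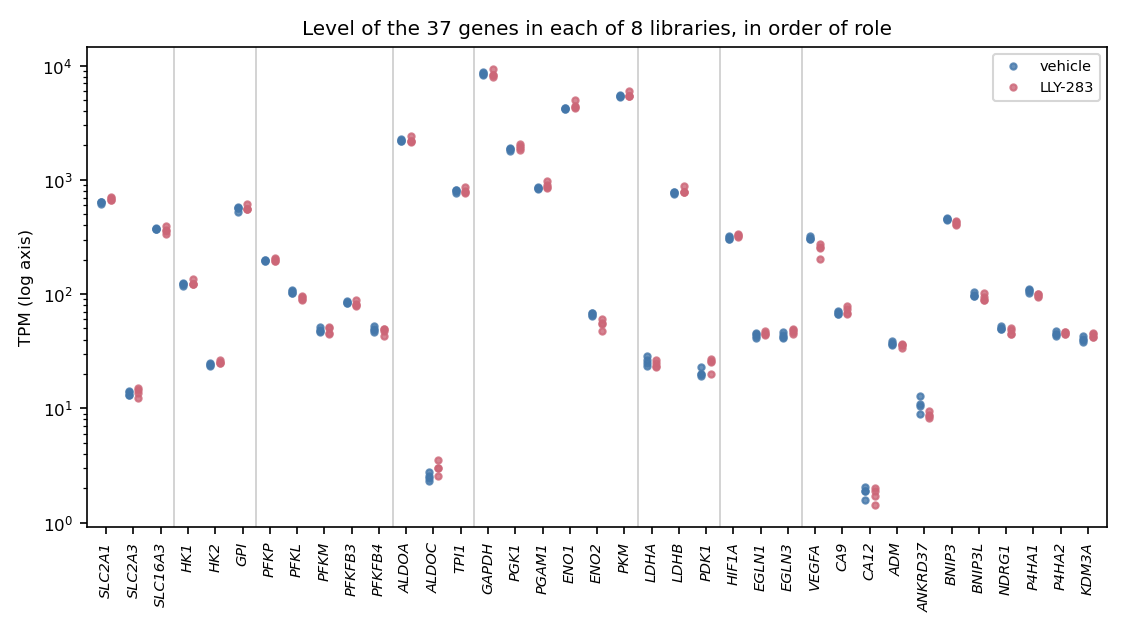
Level of each of the 37 genes in the 8 libraries, in TPM on a log axis, in the order of their roles (grey lines separate the roles; points are libraries, vehicle left and LLY-283 right). The levels span CA12 at 1.8 TPM to GAPDH at 8483.5 TPM, and within a gene the libraries of both groups lie close together.

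Few genes of the response changed after LLY-283, and all by small amounts. One gene was increased at an adjusted p-value under 0.05 (limma on log2(TPM + 0.1), Benjamini-Hochberg over all 14478 genes), 5 were decreased and 31 were not called. SLC2A1, the more abundant of the 2 glucose transporters among the 37 genes, rose by 8.4%. PFKL, an isozyme of phosphofructokinase, fell by 11.8% and ENO2, the neuronal isozyme of enolase, fell by 18.6%. VEGFA fell by 21.0%, BNIP3 fell by 7.81% and P4HA1, a subunit of collagen prolyl hydroxylase, fell by 8.12%. None of the 37 passed 1.5-fold.

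Among all genes tested, 8.61% were increased and 17.6% decreased, against 2.7% and 13.5% of the 37 genes. That split of all genes was 12.9% and 12.6% under quantile normalization and 13.3% and 12.9% with median-of-ratios scaling. With the 1.5-fold threshold added, 0.394% of all genes were increased and 3.48% decreased. The 37 genes had a median log2 fold change of 0.014 (range -0.34 to 0.25) beside -0.047 for all genes tested. Above 0 lay 21 of the 37, a larger share than the 39.8% of all genes (5766 of 14478). Under quantile normalization the medians were 0.02 for the 37 genes and 0.014 for all genes. The 4 LLY-283 values all exceeded the 4 vehicle values for 4 genes (10.8%; SLC2A1, HK2, ENO1 and LDHB) and all fell under them for 5 (13.5%; the 5 genes called decreased), against 9.63% and 19.6% of all genes. The shares called are thus near or under those of genes in general. Of the 31 genes not called, 27 had a 95% interval of the fold change within 1.2-fold in either direction and all 31 had it within 1.5-fold. Without LLY-283 replicate 4, 2 of the 37 genes were increased and 6 decreased, while 10.3% of all genes were increased and 18.5% decreased.

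**Figure D2:**
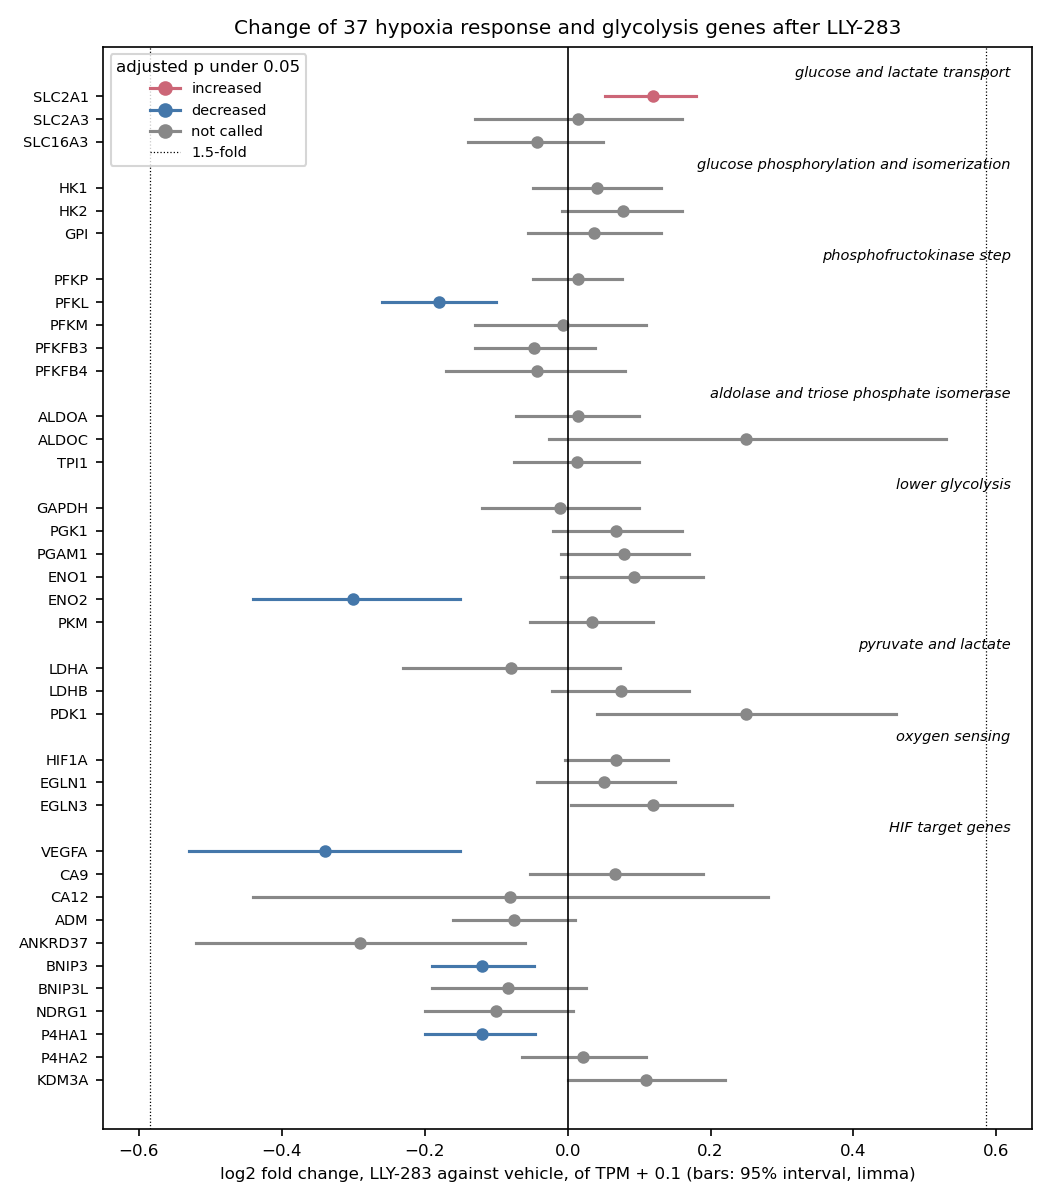
Log2 fold change of TPM + 0.1, LLY-283 against vehicle, for the 37 genes by role (x axis; point: fitted value, bar: 95% interval from limma, n = 4 libraries per group; dotted lines: 1.5-fold). The 1 increased gene is SLC2A1, the 5 decreased genes are PFKL, ENO2, VEGFA, BNIP3 and P4HA1, and every point lies between -0.34 and 0.25.

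HIF acts through response elements, so the promoters of the called genes are shown with the core of that element. The promoter table of RefSeq (GRCh38.p14, 250 bases before to 50 after a start site) was searched for ACGTG and GCGTG on both strands, where a match on the other strand reads CACGT or CACGC and a CACGTG counts on both strands. Entries were found for 33 of the 37 genes. SLC2A3, VEGFA, BNIP3L and NDRG1 had none. The windows below show the 5 called genes with an entry, 5′ to 3′ on the gene's own strand from 250 bases before the start to 30 after it, with each match in capitals. They are SLC2A1 at chr1:42958839-42959118 on the minus strand, PFKL at chr21:44299803-44300082 on the plus strand, ENO2 at chr12:6914330-6914609 on the plus strand, BNIP3 at chr10:131981894-131982173 on the minus strand and P4HA1 at chr10:73096837-73097116 on the minus strand.
SLC2A1: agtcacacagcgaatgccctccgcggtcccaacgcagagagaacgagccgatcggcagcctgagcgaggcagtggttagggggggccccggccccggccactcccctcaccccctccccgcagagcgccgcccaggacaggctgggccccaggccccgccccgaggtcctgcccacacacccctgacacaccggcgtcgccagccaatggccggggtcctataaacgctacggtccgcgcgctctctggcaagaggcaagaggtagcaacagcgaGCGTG
PFKL: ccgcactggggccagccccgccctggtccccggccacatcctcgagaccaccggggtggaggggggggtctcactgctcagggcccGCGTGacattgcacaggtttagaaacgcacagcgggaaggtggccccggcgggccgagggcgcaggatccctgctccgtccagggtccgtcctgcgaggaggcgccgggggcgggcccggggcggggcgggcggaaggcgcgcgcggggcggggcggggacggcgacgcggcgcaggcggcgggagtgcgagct
ENO2: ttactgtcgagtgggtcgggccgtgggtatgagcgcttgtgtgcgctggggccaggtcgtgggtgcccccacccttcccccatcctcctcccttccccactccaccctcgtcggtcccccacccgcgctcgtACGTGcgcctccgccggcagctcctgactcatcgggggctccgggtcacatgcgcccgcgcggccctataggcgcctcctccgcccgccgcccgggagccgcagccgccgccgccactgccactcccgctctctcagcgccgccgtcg
BNIP3: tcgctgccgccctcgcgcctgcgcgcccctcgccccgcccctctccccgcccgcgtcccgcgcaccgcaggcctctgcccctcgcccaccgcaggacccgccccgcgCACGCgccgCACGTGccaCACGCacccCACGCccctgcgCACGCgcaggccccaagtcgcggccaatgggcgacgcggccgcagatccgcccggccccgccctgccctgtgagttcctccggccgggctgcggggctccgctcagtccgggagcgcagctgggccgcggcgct
P4HA1: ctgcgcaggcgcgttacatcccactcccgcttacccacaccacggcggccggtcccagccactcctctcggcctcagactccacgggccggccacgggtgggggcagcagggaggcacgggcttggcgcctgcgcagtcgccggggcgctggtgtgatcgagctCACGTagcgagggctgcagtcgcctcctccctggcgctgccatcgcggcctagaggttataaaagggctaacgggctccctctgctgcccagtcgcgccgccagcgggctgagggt

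All 5 windows held a match, at 25 bases after the start in SLC2A1, the gene that rose, and before the start in the 4 that fell. BNIP3 held 6 matches between 143 and 104 bases before its start, 2 of them in a single CACGTG. Matches were also common elsewhere: 41 of the 61 windows of the 33 genes (67.2%) held one, beside 60.6% of the 15174 windows of genes tested and 48.4% of all 35116 windows in the table. Counted by gene, 30 of the 33 held a match in any window. The same held for 7297 of the 10365 genes tested that had an entry, and for 14318 of all 27305 genes in the table. Genes differ in their number of windows, and no test was run. CACGTG occurred in 13.1% of the windows of the 33 genes, 9.12% of those of genes tested and 7.26% of all. A match describes these letters and no binding was measured.

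Glucose enters the cell through SLC2A1 and SLC2A3, and lactate leaves it through SLC16A3. SLC2A1 (ENSG00000117394, chromosome 1, 42925353 to 42958893 in GENCODE release 44 on GRCh38) held 613.38, 634.83, 637.23 and 634.02 TPM in vehicle replicates 1 to 4 and 695.96, 662.76, 667.18 and 705.99 TPM in LLY-283 replicates 1 to 4. Every LLY-283 library lay above every vehicle library, and vehicle replicate 1 was the lowest. Its mean went from 630 ± 11.1 to 683 ± 21.3 TPM (SD, n = 4; log2 fold change 0.12, standard error 0.0287, adjusted p = 0.0161). SLC2A3, the high-affinity neuronal transporter, was low by comparison (13.6 ± 0.587 against 13.8 ± 1.12 TPM, log2 fold change 0.014, adjusted p = 0.897). SLC16A3 had 372 ± 5.04 and 362 ± 22.1 TPM (log2 fold change -0.043, adjusted p = 0.475), and it was called decreased only without LLY-283 replicate 4 among the alternatives run (-0.082, adjusted p = 0.0423). SLC2A1 took 97.9 ± 0.0754% of the summed TPM of the 2 glucose transporters in vehicle and 98 ± 0.146% in LLY-283 (exact permutation test, two-sided, p = 0.2).

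Hexokinase traps glucose as glucose 6-phosphate and GPI turns that into fructose 6-phosphate. None of these 3 genes was called. HK2, the isozyme induced in many tumors, held 24.67, 23.87, 24.53 and 23.32 TPM in vehicle and 26.41, 25.12, 24.74 and 25.48 TPM in LLY-283. The LLY-283 values were all higher, but the gap was narrow and the difference did not pass the test (log2 fold change 0.078, standard error 0.0378, adjusted p = 0.162). HK1, the more abundant isozyme, had 122 ± 2.59 and 126 ± 6.88 TPM (log2 fold change 0.041, adjusted p = 0.486), and GPI had 556 ± 20.3 and 571 ± 29.7 TPM (0.037, adjusted p = 0.545). In both, the highest value was that of LLY-283 replicate 4, and without that library the log2 fold changes were 0.0025 and 0.0008. HK2 made up 16.5 ± 0.581% of the summed TPM of HK1 and HK2 in vehicle and 16.8 ± 0.795% in LLY-283. HKDC1, a further hexokinase gene not in this sum, had 21.9 ± 0.921 and 21.8 ± 1.09 TPM and was not called (-0.012, adjusted p = 0.88).

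Phosphofructokinase commits the sugar to glycolysis, and 1 of its 3 isozyme genes was decreased. PFKL, the liver-type subunit (ENSG00000141959, chromosome 21, 44300051 to 44327376), held 101.65, 107.57, 103.07 and 106.58 TPM in vehicle and 93.78, 96.37, 88.25 and 90.91 TPM in LLY-283. The groups did not overlap, and its mean fell from 105 ± 2.81 to 92.3 ± 3.52 TPM (log2 fold change -0.18, standard error 0.0352, adjusted p = 0.00536). PFKP, the platelet-type subunit and the most abundant of the 3, had 197 ± 2.21 and 199 ± 5.78 TPM (0.014, adjusted p = 0.752), and PFKM, the muscle-type subunit, had 48.2 ± 2.13 and 48.1 ± 3.32 TPM (-0.0069, adjusted p = 0.940).

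Within the family, PFKP took 56.5, 56, 56.6 and 56% of the summed phosphofructokinase TPM in vehicle and 59.3, 56.9, 59.2 and 59% in LLY-283. The LLY-283 shares were all higher, with LLY-283 replicate 2 the closest to the vehicle range (exact permutation test, two-sided, p = 0.0286, the smallest that 4 against 4 libraries allow, and 0.0762 after adjustment over 8 shares). PFKFB3 and PFKFB4 make and break fructose 2,6-bisphosphate, the activator of phosphofructokinase. PFKFB3 had 84.8 ± 1.67 and 82.1 ± 4.10 TPM (-0.047, adjusted p = 0.403) and PFKFB4 had 49.0 ± 2.45 and 47.6 ± 3.14 TPM (-0.043, adjusted p = 0.601). UCN2, which overlaps PFKFB4 on the same strand, had means of 21.8 and 11.2 TPM, and how the counting divided reads between the 2 genes is not stated in the sources used here.

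Aldolase splits the hexose and TPI1 interconverts the triose products. ALDOA had 2228.4 ± 37.5 and 2251.6 ± 122 TPM (log2 fold change 0.014, adjusted p = 0.824), and TPI1 had 795 ± 20.7 and 803 ± 42.3 TPM (0.013, adjusted p = 0.838), and without LLY-283 replicate 4 the values were -0.024 and -0.023. ALDOC, the brain-type aldolase, was near the low end of the genes, with 2.53, 2.29, 2.46 and 2.79 TPM in vehicle and 3.03, 2.99, 3.53 and 2.56 TPM in LLY-283. LLY-283 replicates 1 to 3 of ALDOC lay above the vehicle range and replicate 4 within it (log2 fold change 0.25, 95% interval -0.026 to 0.53, adjusted p = 0.166). ALDOA supplied 99.89% of the aldolase TPM in vehicle and 99.86% in LLY-283.

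The lower steps, which yield ATP and NADH, hold the most abundant transcripts. GAPDH, often used as a reference gene, held 8240.07, 8704.98, 8453.33 and 8627.8 TPM in vehicle and 8195.94, 8245.88, 8028.52 and 9371.34 TPM in LLY-283. LLY-283 replicates 1 and 3 lay under the vehicle range, replicate 2 just inside it and replicate 4 above it. The log2 fold change of GAPDH was -0.010 (standard error 0.0487, adjusted p = 0.899), turned to 0.035 with median-of-ratios scaling and to 0.024 with the GC and length trends removed, and was -0.06 without LLY-283 replicate 4 (adjusted p = 0.0536). PGK1, which makes the first ATP of the pathway, had 1850.8 ± 43.8 and 1941.4 ± 103 TPM (0.068, adjusted p = 0.233). PGAM1, the mutase that follows it, had 847 ± 15.4 and 896 ± 51.2 TPM (0.079, adjusted p = 0.170). PKM, pyruvate kinase, had 5441.0 ± 75.6 and 5576.1 ± 298 TPM (0.034, adjusted p = 0.548), and the M1 and M2 forms of this gene cannot be separated in gene-level values. Without LLY-283 replicate 4 the log2 fold changes were 0.036 for PGK1, 0.042 for PGAM1 and -0.0035 for PKM.

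Of the 2 enolases among the genes described here, the rarer was decreased and the abundant one was not called. ENO2 (ENSG00000111674, chromosome 12, 6913745 to 6923698) held 66.01, 64.73, 68.55 and 68.57 TPM in vehicle and 60.18, 55.15, 55.79 and 47.51 TPM in LLY-283. All LLY-283 libraries were lower, with replicate 4 the lowest, and the mean fell from 67 ± 1.91 to 54.7 ± 5.26 TPM (log2 fold change -0.30, standard error 0.064, adjusted p = 0.00892). Without LLY-283 replicate 4 the log2 fold change of ENO2 was -0.23 (adjusted p = 0.00324). ENO1, the ubiquitous isozyme, held 4128.43, 4272.79, 4170.71 and 4247.02 TPM in vehicle and 4395.09, 4335.04, 4280.87 and 4952.22 TPM in LLY-283. Its groups did not overlap either, but the gap between the highest vehicle and the lowest LLY-283 library was small and the difference did not pass the test (0.093, standard error 0.0453, adjusted p = 0.164; 0.045 without LLY-283 replicate 4). ENO1 accounted for 98.4 ± 0.0535% of the summed TPM of ENO1 and ENO2 in vehicle and 98.8 ± 0.178% in LLY-283, with no overlap (exact permutation test, two-sided, p = 0.0286, adjusted 0.0762). ENO3, a further enolase gene not in this sum, had 15.1 ± 1.66 and 12.4 ± 1.83 TPM and was not called (-0.29, adjusted p = 0.0986). LRRC23, which overlaps ENO2 on the same strand, had means of 3.58 and 2.52 TPM.

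**Figure D3:**
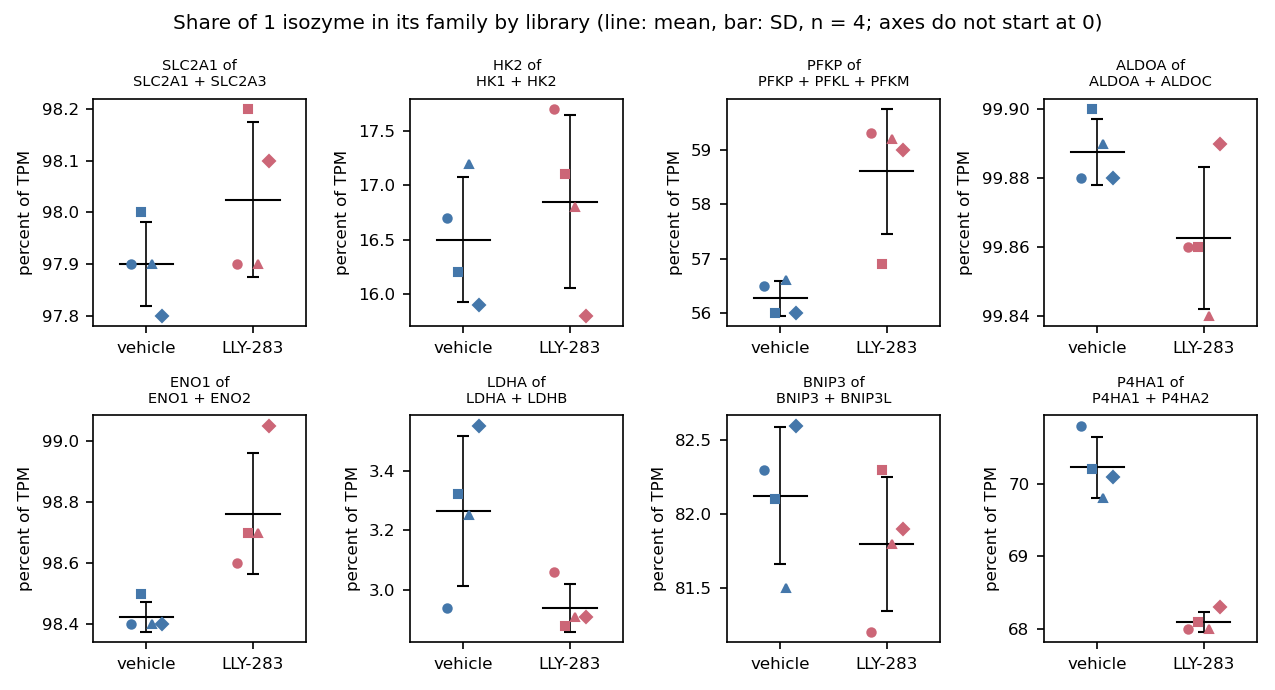
Share of 1 isozyme in the summed TPM of its family, in percent, for 8 families (points: libraries, with the marker shape giving the replicate number as circle, square, triangle and diamond for 1 to 4; line: mean, bar: SD, n = 4; the axes do not start at 0). Each sum holds only the family members among the genes described here, so HKDC1 and ENO3 are left out. The shares of PFKP, ENO1 and P4HA1 do not overlap between groups, while the other 5 do.

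Nearly all of the lactate dehydrogenase TPM was assigned to LDHB, which encodes the H subunit, and neither protein nor activity was measured. LDHA, the M subunit and a classical HIF target, had only 26.0 ± 2.18 TPM in vehicle and 24.6 ± 1.61 TPM in LLY-283 (log2 fold change -0.079, adjusted p = 0.425) and ranked 5749 of all genes listed. LDHB had 769 ± 14.5 and 811 ± 52.6 TPM (0.074, adjusted p = 0.235). Its LLY-283 values, from 781.96 to 889.31 TPM, all exceeded its vehicle values, from 748.3 to 779.57 TPM, by a narrow gap, and without LLY-283 replicate 4 its log2 fold change was 0.028. LDHA thus made up 3.27 ± 0.253% of the LDHA and LDHB TPM in vehicle and 2.94 ± 0.0822% in LLY-283 (exact permutation test, two-sided, p = 0.0571, adjusted 0.114). The 6 annotated LDHA pseudogenes summed to 0.67 TPM in vehicle, 2.17% of LDHA by their mean over the libraries, and no gene of at least 1 TPM overlapped LDHA. Whether the low LDHA value is a property of these cells or of the counting was not tested.

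PDK1, the kinase that switches off pyruvate dehydrogenase and so keeps pyruvate from the TCA cycle, had the highest fitted value of the 37 genes together with ALDOC, without passing the test. It held 19.83, 20.12, 22.84 and 19.35 TPM in vehicle and 27.13, 25.8, 25.43 and 20 TPM in LLY-283. LLY-283 replicates 1 to 3 lay above every vehicle library and replicate 4 within the vehicle range. The log2 fold change of PDK1 was 0.25 (standard error 0.0941, 95% interval 0.041 to 0.46, adjusted p = 0.0769), and without LLY-283 replicate 4 it was 0.35 (adjusted p = 0.00368). PDK1 also passed the test under quantile normalization and median-of-ratios scaling, with 0.30 in each.

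Oxygen sensing is represented by HIF1A and by EGLN1 and EGLN3, the prolyl hydroxylases that mark HIF1A for destruction. All 3 had fitted values above 0 and none was called. HIF1A held 318.76, 302.65, 323.62 and 305.19 TPM in vehicle and 338.83, 318.46, 330.03 and 323.05 TPM in LLY-283, which overlapped (log2 fold change 0.068, standard error 0.0317, adjusted p = 0.147). HIF1A protein, through which the factor is mainly controlled, was not measured. EGLN3, itself a HIF target, held 41.52, 46.68, 42.28 and 43.92 TPM in vehicle and 46.28, 48.92, 44.27 and 49.87 TPM in LLY-283. The LLY-283 values tended to be higher but overlapped (0.12, standard error 0.0504, adjusted p = 0.115). EGLN1 had 43.8 ± 1.97 and 45.4 ± 1.57 TPM (0.051, adjusted p = 0.404).

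Of the 11 HIF targets outside glycolysis and oxygen sensing, 3 (27.3%) were decreased, none was increased and 8 had fitted values under 0, with a median log2 fold change of -0.084. Among all genes tested, 17.6% were decreased, 8.61% increased and 39.8% had fitted values above 0, with a median of -0.047. Whether the HIF targets differ from genes in general was not tested. Under quantile normalization the medians were -0.082 for the HIF targets and 0.014 for all genes. With median-of-ratios scaling they were -0.039 and -0.0022. Over the 19 alternatives run, 7 to 9 of the HIF targets had fitted values under 0. VEGFA, the growth factor that drives vessel formation (ENSG00000112715, chromosome 6, 43770184 to 43786487), held 302.51, 308.43, 325.18 and 305.62 TPM in vehicle and 274.08, 258.4, 254.07 and 201.11 TPM in LLY-283. The groups did not overlap, with LLY-283 replicate 4 well under the rest. Its mean fell from 310 ± 10.1 to 247 ± 31.7 TPM (log2 fold change -0.34, standard error 0.0829, adjusted p = 0.0154), the lowest fitted value of the 37 genes. Without LLY-283 replicate 4 the value was -0.24 (adjusted p = 0.00125), and ANKRD37 then had a lower one, -0.33, which did not pass the test (adjusted p = 0.0527).

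BNIP3 and BNIP3L are paired receptors on the mitochondrial outer membrane that direct mitochondria to autophagy. BNIP3 (ENSG00000176171, chromosome 10, 131967684 to 131981967) held 444.2, 454.2, 460.17 and 453.22 TPM in vehicle and 436.98, 410.66, 399.45 and 423.94 TPM in LLY-283. The highest LLY-283 library, replicate 1, came close to the lowest vehicle library without reaching it (means 453 ± 6.59 and 418 ± 16.3 TPM, log2 fold change -0.12, standard error 0.0312, adjusted p = 0.0223). BNIP3L had 98.7 ± 4.17 and 93.2 ± 5.99 TPM (-0.084, adjusted p = 0.237). BNIP3 took 82.1 ± 0.456% of the TPM of the pair in vehicle and 81.8 ± 0.453% in LLY-283 (exact permutation test, two-sided, p = 0.343). The call on BNIP3 was lost in 9 of the 19 alternatives run, over which its adjusted p-value ranged from 0.0133 to 0.142.

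P4HA1 and P4HA2 are the catalytic subunits of the prolyl hydroxylase that stabilizes collagen in the endoplasmic reticulum. P4HA1 (ENSG00000122884, chromosome 10, 73007217 to 73096974) held 107.63, 101.55, 110.05 and 105.34 TPM in vehicle and 99.74, 94.66, 95.66 and 99.94 TPM in LLY-283. Its groups were close but separate, and the mean fell from 106 ± 3.62 to 97.5 ± 2.73 TPM (log2 fold change -0.12, standard error 0.0341, adjusted p = 0.0271). This call was lost in 8 of the 19 alternatives (adjusted p from 0.0123 to 0.126). P4HA2 had 45.0 ± 1.86 and 45.6 ± 1.2 TPM (0.022, adjusted p = 0.715). The share of P4HA1 in the summed TPM of both was 70.8, 70.2, 69.8 and 70.1% in vehicle and 68, 68.1, 68 and 68.3% in LLY-283. Here the groups were well apart (exact permutation test, two-sided, p = 0.0286, adjusted 0.0762).

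ANKRD37, an ankyrin-repeat gene used as a marker of hypoxia, held 10.87, 12.83, 8.93 and 10.51 TPM in vehicle and 8.79, 8.6, 8.15 and 9.49 TPM in LLY-283. Vehicle replicate 3 lay among the LLY-283 values (log2 fold change -0.29, standard error 0.102, adjusted p = 0.0636), and without that library the gene was called decreased (-0.37). KDM3A, a histone H3 lysine demethylase, held 39.97, 37.74, 40.66 and 43.31 TPM in vehicle and 42.11, 45, 45.25 and 41.9 TPM in LLY-283. Its groups overlapped and it had the highest fitted value of the 11 HIF targets outside glycolysis and oxygen sensing (0.11, standard error 0.0484, adjusted p = 0.129).

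The remaining HIF targets overlapped between groups. ADM, which encodes the vasodilator peptide adrenomedullin, had 37.2 ± 1.13 and 35.3 ± 1.21 TPM (-0.075, adjusted p = 0.181), and NDRG1, a gene long known to respond to hypoxia, had 50.4 ± 1.45 and 47.2 ± 2.87 TPM (-0.10, adjusted p = 0.159). CA9 and CA12 are cell-surface carbonic anhydrases that help cells export acid. CA9 had 68.5 ± 2.06 and 71.8 ± 5.61 TPM (0.066, adjusted p = 0.394) and CA12 had 1.85 ± 0.199 and 1.75 ± 0.263 TPM (-0.080, adjusted p = 0.746).

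**Figure D4:**
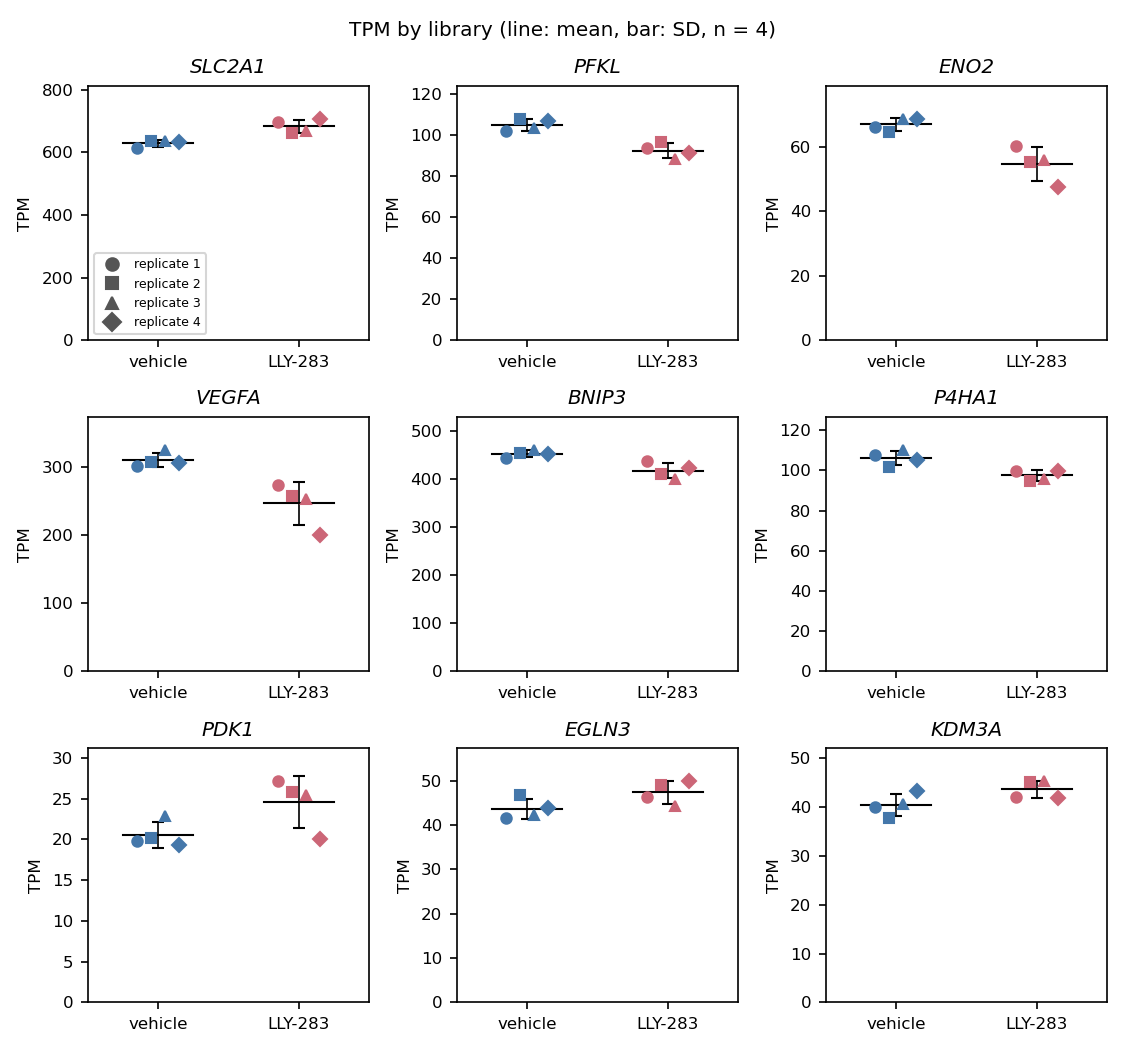
TPM of 9 genes in each library (points: libraries, with the marker shape giving the replicate number; line: mean, bar: SD, n = 4; axes start at 0). The groups do not overlap for SLC2A1, PFKL, ENO2, VEGFA, BNIP3 and P4HA1, and they overlap for PDK1, EGLN3 and KDM3A, where LLY-283 replicate 4 of PDK1 lies at 20 TPM.

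LLY-283 replicate 4 was the highest of all 8 libraries for 12 of the 17 glycolytic enzymes and for 15 of the 37 genes. Without it, the enzymes with a fitted value above 0 went from 12 to 8 of 17 (14 with median-of-ratios scaling, 11 under quantile normalization), and their median log2 fold change from 0.034 to -0.0021. For the HIF targets without that library, 8 of 11 again had fitted values under 0, with a median of -0.11. SLC2A1, PFKL, ENO2 and VEGFA kept their calls in all 19 alternatives, among them the fits without LLY-283 replicate 4. The smaller mitochondrial share in that library moved with the enzyme levels, and its part in them was not tested. With the mitochondrial genes left out and TPM rescaled, the calls were again 1 increased and 5 decreased, with the enzyme median at 0.025. Of all genes, 7.86% were then increased and 18.1% decreased.

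**Figure D5:**
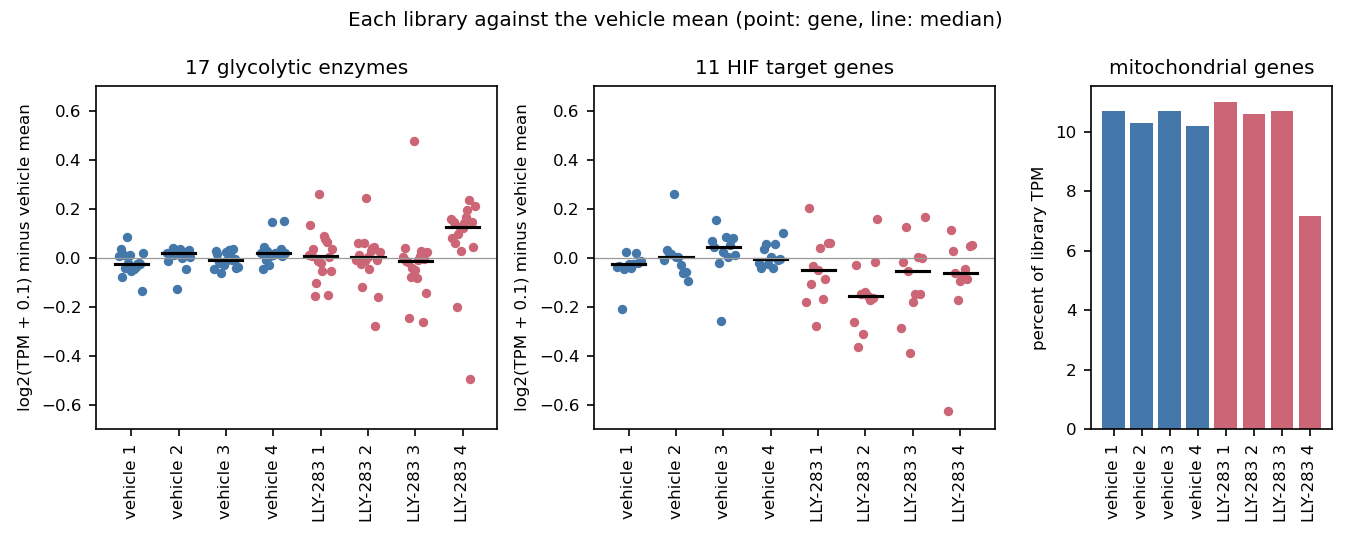
Each library against the vehicle mean in log2(TPM + 0.1), for the 17 glycolytic enzymes (left) and the 11 HIF targets (middle; point: gene, line: median), with the percent of library TPM in mitochondrial genes (right, bars from 0). The enzyme median stands highest in LLY-283 replicate 4, which also has the lowest mitochondrial share (7.19%), while the HIF target medians lie under 0 in all 4 LLY-283 libraries.

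Other genes of the same pathways were counted in lists written for this purpose, to be read beside the 8.61% of all genes tested that were increased and the 17.6% that were decreased. Of 23 further glycolytic isozymes and gluconeogenesis genes, 11 were tested, none was increased and 3 (27.3%) were decreased, with a median log2 fold change of -0.086. Among the genes tested in these lists, the mitochondrial PEP carboxykinase PCK2 fell most and alone passed 1.5-fold. It went from 15.7 ± 0.531 to 10.0 ± 0.483 TPM (-0.64, standard error 0.0515, adjusted p = 7.4e-05).

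Of 19 regulators of the HIF pathway, 18 were tested and 4 (22.2%, beside 17.6% of all genes) were decreased, with none increased and a median of -0.022. P4HTM, a transmembrane prolyl hydroxylase, fell from 23.9 ± 1.77 to 18.2 ± 0.780 TPM (-0.39, adjusted p = 0.00158). EGLN2, the third HIF prolyl hydroxylase, fell from 40.5 ± 0.674 to 35.5 ± 1.05 TPM (-0.19, adjusted p = 0.00337), and VHL, which recruits hydroxylated HIF1A to its ubiquitin ligase, from 37 ± 1.02 to 34.3 ± 0.279 TPM (-0.11, adjusted p = 0.0353). The fourth was SENP1, a SUMO protease that overlaps PFKM on the opposite strand (-0.21, adjusted p = 0.0468).

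Of 36 further HIF targets, 30 were tested and 5 (16.7%, beside 17.6% of all genes) were decreased, with a median of -0.02. DDIT4, an inhibitor of mTORC1 signalling, fell from 184 ± 4.87 to 137 ± 7.77 TPM (-0.43, adjusted p = 0.000188). The other 4 decreased genes, STC1, CCNG2, KDM4C and HILPDA, had log2 fold changes of -0.12, -0.30, -0.22 and -0.23.

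The routes that branch from glycolysis gave calls in both directions. In the pentose phosphate pathway 2 of 7 genes rose and 2 fell (28.6% each, beside 8.61% and 17.6% of all genes). TKT, transketolase, rose from 1096.9 ± 28.4 to 1350.0 ± 83.4 TPM (0.30, adjusted p = 0.00116), and PGLS, the lactonase of the oxidative branch, fell from 73.1 ± 2.17 to 57.1 ± 0.996 TPM (-0.36, adjusted p = 0.000107). For pyruvate entry and the TCA cycle, 29 of 30 genes were tested, 6 rose (20.7%, beside 8.61% of all genes) and 2 fell (6.90%, beside 17.6%), with a median of 0.034. IDH3B, a subunit of isocitrate dehydrogenase, rose from 71.5 ± 3.28 to 89.3 ± 3.57 TPM (0.32, adjusted p = 0.000778). PDPR, the regulatory subunit of pyruvate dehydrogenase phosphatase, fell from 31.3 ± 1.47 to 26.4 ± 1.23 TPM (-0.25, adjusted p = 0.00570).

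Sharing of reads was checked for the 37 genes. The sources do not say whether counting used strand, so genes that overlap cannot be fully separated, and 19 of the 37 overlap at least 1 other gene that averages 1 TPM or more. Among the called genes, BNIP3 overlaps a long noncoding gene on the opposite strand with means of 2.62 and 1.03 TPM, VEGFA one with 2.8 and 1.83 TPM and ENO2 the gene LRRC23, while SLC2A1, PFKL and P4HA1 overlap none. Processed pseudogenes held little signal: the 65 copies of GAPDH summed to 23 and 20.3 TPM, 0.256% of GAPDH itself, and the 39 of BNIP3 to 3.01 and 2.56 TPM, 0.64% of BNIP3.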

How the data were processed

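RNAseq was measured in 8 libraries of U251 cells, 4 of them given vehicle and 4 LLY-283, after capture of poly(A) RNA. The authors trimmed adapters with Cutadapt 1.18, mapped reads with STAR to GRCh38, estimated gene expression with RSEM on GENCODE release 41 and deposited TPM per gene, rounded to 2 decimals, whose libraries sum to 1000000 or 1000001. The submitters' processing notes give STAR 2.7.0f and RSEM 1.3.1, and the methods give other versions. Strandedness and depth are not given in the sources used here.

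From the deposited TPM values, log2(TPM + 0.1) was taken for the 14478 genes averaging 1 TPM or more. Groups were compared with limma 3.58.1 in R 4.3.3 (eBayes with trend, no replicate block), adjusting p-values over all these genes by the Benjamini-Hochberg method. A gene was called at an adjusted p-value under 0.05. Fold changes on this scale understate those of low genes. The procedure was tested on simulated data. Isozyme shares, taken over the family members among the 37 genes, were compared by exact permutation over libraries. Positions came from GENCODE release 44, in which 14443 of these genes had an entry, and promoters from RefSeq.

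All 37 genes are named, with values per library for the called genes and those with the smallest p-values in each direction. In each other list, the top called gene by p-value is named per direction, and other names there were added once values were known, while 1 gene that this rule selects is not reported here. The genes and lists were chosen with earlier results of these data known.

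The alternatives were pseudocounts of 0.5 and 1, a filter at a mean of 5 TPM and none, quantile normalization, median-of-ratios scaling, mitochondrial genes left out, eBayes without trend and robust eBayes, a replicate block, GC and length trends removed by natural splines (4 degrees of freedom each) and each library left out in turn.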

Additional observations from a re-analysis of the deposited data

Results flagged for a closer look

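In each gene and group, the highest or lowest library was compared with the nearest of the other 3 by Dixon's ratio of gap to range. Such groups numbered 74 and share libraries, so the checks are not independent. Chance alone gives about 1 in 20 for a single check. In 9 groups a library lay beyond the 95% critical value. LLY-283 replicate 4 was that library in 7 of the 9, and was the highest each time. It held 136.0 TPM of HK1 (121.4 to 123.1 in the other 3), 615.39 TPM of GPI (550.56 to 560.53) and 2432.17 TPM of ALDOA (2162.2 to 2207.0). It also held 9371.34 TPM of GAPDH (8028.52 to 8245.88), 4952.22 TPM of ENO1 (4280.87 to 4395.09), 6022.26 TPM of PKM (5411.48 to 5451.23) and 889.31 TPM of LDHB (781.96 to 789.0). The mitochondrial share of this library was 7.19% of TPM, and its part in these values was not tested.

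Vehicle replicate 1 was the lowest vehicle library beyond the same limit for SLC2A1, with 613.38 TPM against 634.02 to 637.23 in the other 3, and for TPI1, with 764.42 TPM against 801.54 to 808.09.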

How the results depend on the processing

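Over 19 alternatives, 645 of 701 fits of single genes kept their direction and their side of the threshold, 17 lost a call, 10 gained one and 29 changed sign without being called. SLC2A1, PFKL, ENO2 and VEGFA kept their calls throughout. With 1 increased and 5 decreased in the comparison as reported, the decreased genes numbered 3 without a filter on low values, with median-of-ratios scaling and with eBayes without trend, where BNIP3 and P4HA1 were not called. Of all genes, 6.49%, 12.9% and 16.5% were decreased under these 3 settings, against 17.6% as reported. The increased genes numbered 3 under quantile normalization (with ALDOC and PDK1), 5 with median-of-ratios scaling (with HK2, PDK1, HIF1A and KDM3A) and 2 with the GC and length trend removed (with PGAM1). Of all genes, 12.9%, 13.3% and 9.22% were increased under these 3 settings, against 8.61% as reported. Quantile normalization left little gap between the medians, 0.02 for the 37 genes against 0.014 for all genes. Median-of-ratios scaling gave the 37 genes a median of 0.058, against -0.0022 for all genes. With each library left out in turn, 1 to 2 genes were increased and 3 to 6 decreased, with medians from -0.0021 to 0.029. The 3 came without vehicle replicate 4, LLY-283 replicate 2 or LLY-283 replicate 3, and the 2 and the 6 without LLY-283 replicate 4. Over the same fits 6.23 to 10.3% of all genes were increased and 13.1 to 18.5% decreased. The lowest shares came without vehicle replicate 4 and the highest without LLY-283 replicate 4. The cause of these shifts was not tested. The isozyme shares kept their direction in each fit run for them.

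Values that changed sign were, under quantile normalization PFKP -0.0072, PFKM 0.0089, TPI1 -0.042 and CA12 0.11; with median-of-ratios scaling SLC16A3 0.0018, PFKM 0.038, PFKFB4 0.0019 and GAPDH 0.035; with the GC and length trend removed SLC2A3 -0.0056, GAPDH 0.024 and P4HA2 -0.0046. With 1 library left out in turn, the values ran from -0.026 to 0.064 for SLC2A3, -0.0021 to 0.026 for PFKP, -0.041 to 0.025 for PFKM, -0.069 to 0.0037 for PFKFB4, -0.024 to 0.032 for ALDOA, -0.023 to 0.034 for TPI1, -0.06 to 0.014 for GAPDH, -0.0035 to 0.048 for PKM and -0.15 to 0.015 for CA12.

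The labels do not say whether replicate numbers pair the samples, and low correlations cannot settle it. Correlations of same-numbered libraries, as deviations from their group means, lay between -0.085 and 0.032. None of the 8 libraries correlated best with its own number. With a replicate block 1 gene was increased and 4 were decreased, with a median of 0.014, and BNIP3 was not called. Among all genes the block gave 1095 increased and 2201 decreased, against 1247 and 2541.

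TPM keeps no depth, so the counting error of low genes such as CA12 and ALDOC is unknown.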
